A study of Oryza sativa with 18 samples.

Results

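The question addressed here is how the difference between the mutant line Ko1 and wild type (WT) in rice flag leaves depended on the stage of grain filling. It was measured as an interaction, gene by gene: the log2 difference Ko1 minus WT at 15DAF, minus the log2 difference Ko1 minus WT at 5DAF, where DAF is read as days after flowering. A positive value means that the level in Ko1 relative to WT was higher at 15DAF than at 5DAF, whatever the level at either stage. The comparison rests on 12 of the 18 RNA-seq libraries of the series, 3 in each of 4 groups: WT at 5DAF, Ko1 at 5DAF, WT at 15DAF and Ko1 at 15DAF. Ko1 is 1 line mutated in OsPHO1;2, and WT is labelled only as wild type. All plants were raised in a paddy field and flag leaves were taken while the grain filled. The kind of mutation is not given in the sources used here, and nothing in the labels says that the 3 libraries of a group came from separate plants, so p-values measure the spread between these libraries, which may be technical. The other 6 libraries came from an OsPHO1;2 overexpressing line at both stages. They entered the low-count filter, the scaling and the estimate of the spread, and their own levels are not given below.

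PHO1 proteins are membrane transporters that export inorganic phosphate (Pi) out of cells, in roots into the xylem, and in rice OsPHO1;2 has also been studied in the movement of Pi in and out of the developing grain. When Pi runs short, plant cells switch on a common set of genes under PHR transcription factors, which SPX proteins hold back while Pi is plentiful. The set includes Pi transporters, phosphatases and nucleases that release Pi from organic molecules, and enzymes that replace membrane phospholipids with galactolipids and sulfolipids. A filling grain draws sugars, nitrogen and phosphorus from the flag leaf, which goes on to senesce.

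The 12 libraries held 13223554 to 18264909 counts, and 20437 of the 55986 loci in the table passed the filter on low counts with all libraries. One library, WT 5DAF replicate 3, stood apart from its group. Its level lay nearer to the Ko1 5DAF mean than to the mean of the other WT 5DAF libraries in 67.2% of the 20437 genes, against 37.3% and 34.5% for WT 5DAF replicates 1 and 2, and its mean correlation across genes was 0.949 with its own group and 0.970 with Ko1 at 5DAF. Ko1 5DAF replicate 1 was also nearer to the other genotype in 53.6% of genes. The interaction was therefore fitted to all libraries and again without WT 5DAF replicate 3, in which 20900 genes passed the filter. Leaf markers (Rubisco small subunits, Rubisco activase and chlorophyll-binding proteins, 22 in the table) summed to 14531 to 53260 CPM (counts per 1000000, TMM-scaled) in each of the 12 libraries. Markers of the grain (20 in the table) summed to 15.4 to 37.2 CPM, and 6 of them were at 0 in all 12. The grain sums were 15.4 to 18.0045 CPM in WT and 22.9 to 28.0 CPM in Ko1 at 15DAF, and 16.2 to 25.5 CPM in WT and 23.1 to 37.2 CPM in Ko1 at 5DAF. Their part in the results was not tested. With all libraries 4 grain markers passed the low-count filter, and no grain marker had an interaction past the threshold in either fit. In whole leaves, fewer cells of a type and less RNA per cell cannot be told apart.

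Among the genes past the threshold, far more had a Ko1 effect that was more positive at 15DAF than at 5DAF than one that was more negative. With all libraries, 113 of 20437 genes (0.553%) passed an adjusted p of 0.05 in edgeR's quasi-likelihood test of the interaction, 94 of them positive (0.460% of genes tested) and 19 negative (0.0930%). Of the 113, 109 differed at least 2-fold. Without WT 5DAF replicate 3, 84 of 20900 genes (0.402%) passed, 71 positive (0.340%) and 13 negative (0.0622%). At an unadjusted p under 0.05, edgeR gave 1710 of the 20437 genes and 1876 of the 20900, and DESeq2 called 307 and 310. List counts below at an unadjusted p or in DESeq2 are to be read beside these. Over all genes tested the interaction was close to balanced in sign, with 11036 of the 20437 and 10934 of the 20900 positive. Its median was 0.04 with all libraries and 0.03 without that library. The edgeR lists of both fits overlapped in 66 genes, 56 positive and 10 negative. This is 58.4% of the all-library list and 78.6% of the other, and all 66 had the same direction in both fits. Another 47 genes passed only with all libraries, and 18 passed only without WT 5DAF replicate 3. The fits share all other libraries, so the overlap is a description and not a replication.

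**Figure D1:**
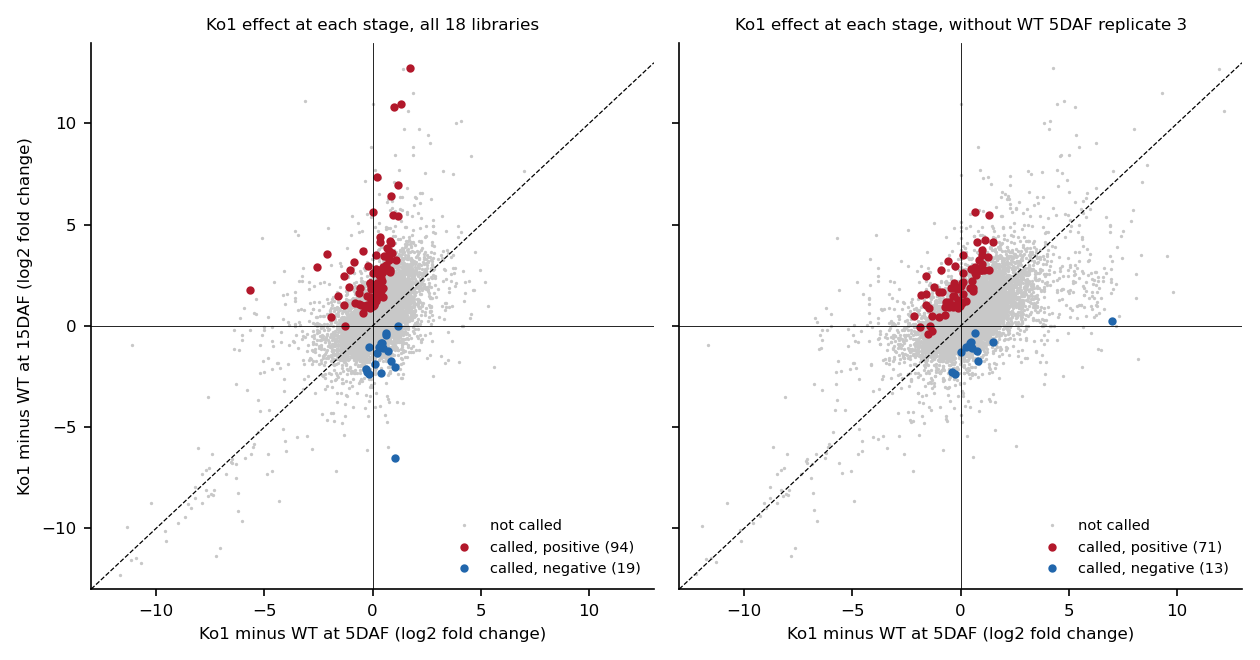
Ko1 minus WT (log2) at 15DAF against 5DAF for each gene tested, with all libraries and without WT 5DAF replicate 3; red points had a positive and blue points a negative interaction past the threshold, and the dashed line marks equal effects. Red points outnumber blue ones, 94 to 19 and 71 to 13. On the 5DAF axis 56 of the 94 red points lie within 0.5 of 0 with all libraries, and 25 of the 71 without WT 5DAF replicate 3.

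All 94 positive genes of the all-library fit and 68 of the 71 of the other had a higher fitted level in Ko1 than in WT at 15DAF, while their difference at 5DAF depended on the fit. Among the 94 positive genes of the all-library fit, the median Ko1 minus WT difference was 0.12 (log2) at 5DAF and 2.06 at 15DAF, and in 56 the 5DAF difference lay within 0.5 of 0. At 15DAF, 89 of the 94 were themselves called higher in Ko1, beside 1334 of all 20437 genes. In either direction 10.96% of all genes differed between the genotypes at that stage. At 5DAF the all-library comparison called 3 genes of 20437 (0.0147%). These differences are built from the libraries that make up the interaction and are descriptions of it. Followed over time within each genotype, 64 of the 94 changed between the stages in Ko1 and not past the threshold in WT, 12 did so in WT and not in Ko1, 10 passed in both genotypes in opposite directions and 8 in both in the same direction. Over all genes, 20.1% changed with stage in Ko1 and 16.7% in WT. The median change of the 94 from 5DAF to 15DAF was 1.603 in Ko1 and −0.22 in WT. Without WT 5DAF replicate 3, 41 of the 71 positive genes passed in Ko1 alone, 9 in WT alone, 10 in opposite directions and 11 in the same direction, where 21.8% of all genes changed in Ko1 and 14.9% in WT. Leaving WT 5DAF replicate 3 in or out touches the 5DAF side of each value. It lay above both other WT 5DAF libraries in 55 of the 94 positive genes, below both in 19 and within the range of the Ko1 5DAF libraries in 39. A high level in this library raises the interaction, so genes called positive are not a neutral set for these counts. The same counts were not taken over all genes. Without WT 5DAF replicate 3, 13.4% of genes differed between Ko1 and WT at 5DAF and 14.7% at 15DAF. These were 1255 higher and 1548 lower in Ko1 at 5DAF, and 1841 higher and 1238 lower in Ko1 at 15DAF. Of the 71 positive genes, 25 then lay within 0.5 of 0 at 5DAF, 13 were called higher in Ko1 and 16 lower in Ko1 at that stage, and 64 were called higher in Ko1 at 15DAF. Their median Ko1 minus WT difference was −0.06 at 5DAF and 1.72 at 15DAF.

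**Figure D2:**
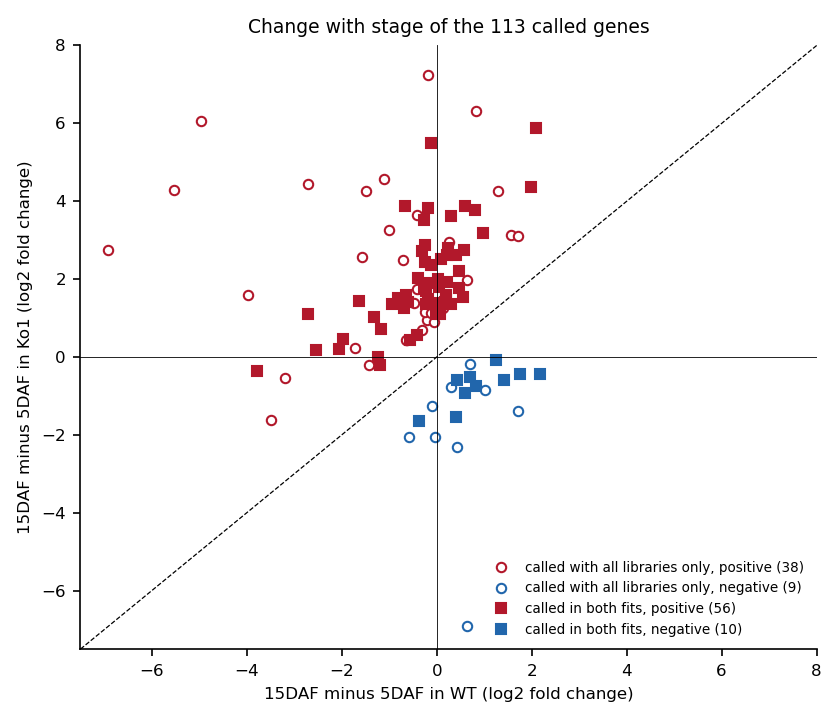
Change from 5DAF to 15DAF (log2) in Ko1 against that in WT for the 113 genes called with all libraries; squares are the 66 called in both fits and circles the other 47, red positive and blue negative. The red points have a median of 1.603 on the Ko1 axis and of −0.22 on the WT axis.

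OsPHO1;2 itself was low in flag leaves and its interaction did not pass the threshold. OsPHO1;2 (LOC_Os02g56510, chromosome 2, 34609408 to 34615666; all coordinates are as the deposited table gives them, in a rice genome build that none of the sources at hand names) stood at 1.72, 3.52 and 2.25 CPM in WT at 5DAF and 3.38, 2.78 and 1.102 CPM in Ko1 at 5DAF. At 15DAF it stood at 1.78, 2.58 and 3.25 CPM in WT and 6.1001, 6.14 and 6.07 CPM in Ko1. The 5DAF ranges overlapped, and at 15DAF the Ko1 libraries lay above all WT libraries. With all libraries PHO1;2 had an interaction of 1.2998 (SE 0.729, edgeR adjusted p = 0.728), and without WT 5DAF replicate 3 it had one of 1.38 (SE 0.786, edgeR adjusted p = 0.668). Gene counts do not show whether a transcript is intact, so this value checks neither the labels nor the mutation.

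The genes with the firmest interaction included 4 whose products are of kinds that release phosphate from organic or condensed forms, and in each the genotypes differed far less at 5DAF than at 15DAF. LOC_Os01g52230 (chromosome 1, 30025249 to 30026465) is described as a phosphoethanolamine/phosphocholine phosphatase, an enzyme that frees Pi from the head groups of phospholipids and whose Arabidopsis relatives respond to Pi shortage. LOC_Os01g52230 stood at 11.1, 22.1 and 30.96 CPM in WT at 5DAF, 43.004, 34.8 and 44.9 CPM in Ko1 at 5DAF, 12.8, 11.2 and 16.1 CPM in WT at 15DAF and 398, 573 and 825 CPM in Ko1 at 15DAF. At 15DAF every Ko1 library lay far above every WT library, and at 5DAF the Ko1 libraries lay above the WT libraries by a much smaller distance. For LOC_Os01g52230 the interaction was 4.54 (SE 0.517, edgeR adjusted p = 0.000475) in the fit to all libraries and 4.19 (SE 0.485, edgeR adjusted p = 0.00111) once WT 5DAF replicate 3 was left out. LOC_Os05g02310 (chromosome 5, 739646 to 742966) encodes a soluble inorganic pyrophosphatase, which splits pyrophosphate into 2 molecules of phosphate. LOC_Os05g02310 stood at 1.45, 2.84 and 5.77 CPM in WT at 5DAF, 5.404, 3.02 and 1.93 CPM in Ko1 at 5DAF, 3.14, 3.94 and 2.22 CPM in WT at 15DAF and 94.5, 105 and 263 CPM in Ko1 at 15DAF. The genotypes overlapped at 5DAF, where all 6 libraries were low, and did not overlap at 15DAF. LOC_Os05g02310 gave an interaction of 5.61 (SE 0.708, edgeR adjusted p = 0.000887) with all libraries and of 4.96 (SE 0.707, edgeR adjusted p = 0.00336) without WT 5DAF replicate 3. LOC_Os01g58640 (chromosome 1, 33897216 to 33904518) is described as a nucleotide pyrophosphatase/phosphodiesterase, a class that cleaves phosphate bonds of nucleotides. LOC_Os01g58640 stood at 4.001, 7.66 and 7.09 CPM in WT at 5DAF, 4.65, 1.97 and 2.69 CPM in Ko1 at 5DAF, 23.3, 28.8 and 27.8 CPM in WT at 15DAF and 135, 165 and 243 CPM in Ko1 at 15DAF. It rose with stage in WT as well, by 2.09 on the log2 scale against 5.87 in Ko1. With all libraries LOC_Os01g58640 had an interaction of 3.78 (SE 0.415, edgeR adjusted p = 0.000475), and without WT 5DAF replicate 3 it had one of 3.69 (SE 0.437, edgeR adjusted p = 0.00111). LOC_Os04g55850 (chromosome 4, 33253917 to 33256627) is described as nuclease PA3, of a type that degrades RNA and single-stranded DNA. LOC_Os04g55850 stood at 5.79, 6.74 and 12.4 CPM in WT at 5DAF, 9.08, 8.39 and 14.3 CPM in Ko1 at 5DAF, 6.48, 8.02 and 6.399 CPM in WT at 15DAF and 96.6, 73.3 and 197 CPM in Ko1 at 15DAF. Ko1 and WT overlapped at 5DAF and were apart at 15DAF. For LOC_Os04g55850 the interaction was 3.79 (SE 0.507, edgeR adjusted p = 0.00149) in the fit to all libraries and 3.39 (SE 0.478, edgeR adjusted p = 0.00312) once WT 5DAF replicate 3 was left out. LOC_Os01g52230, LOC_Os01g58640 and LOC_Os04g55850 kept their calls of both fits in every leave-one-out fit and under the 6 other alternatives listed at the end of the results. LOC_Os05g02310 kept its all-library call in all 12 leave-one-out fits and the 6 other alternatives, and the call made without WT 5DAF replicate 3 ended on further leaving out WT 5DAF replicate 2 (log2 4.296 to 5.43 over the leave-one-out fits). Here and below, the losses named leave out those under the replicate block, which are named with the effects of processing.

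**Figure D3:**
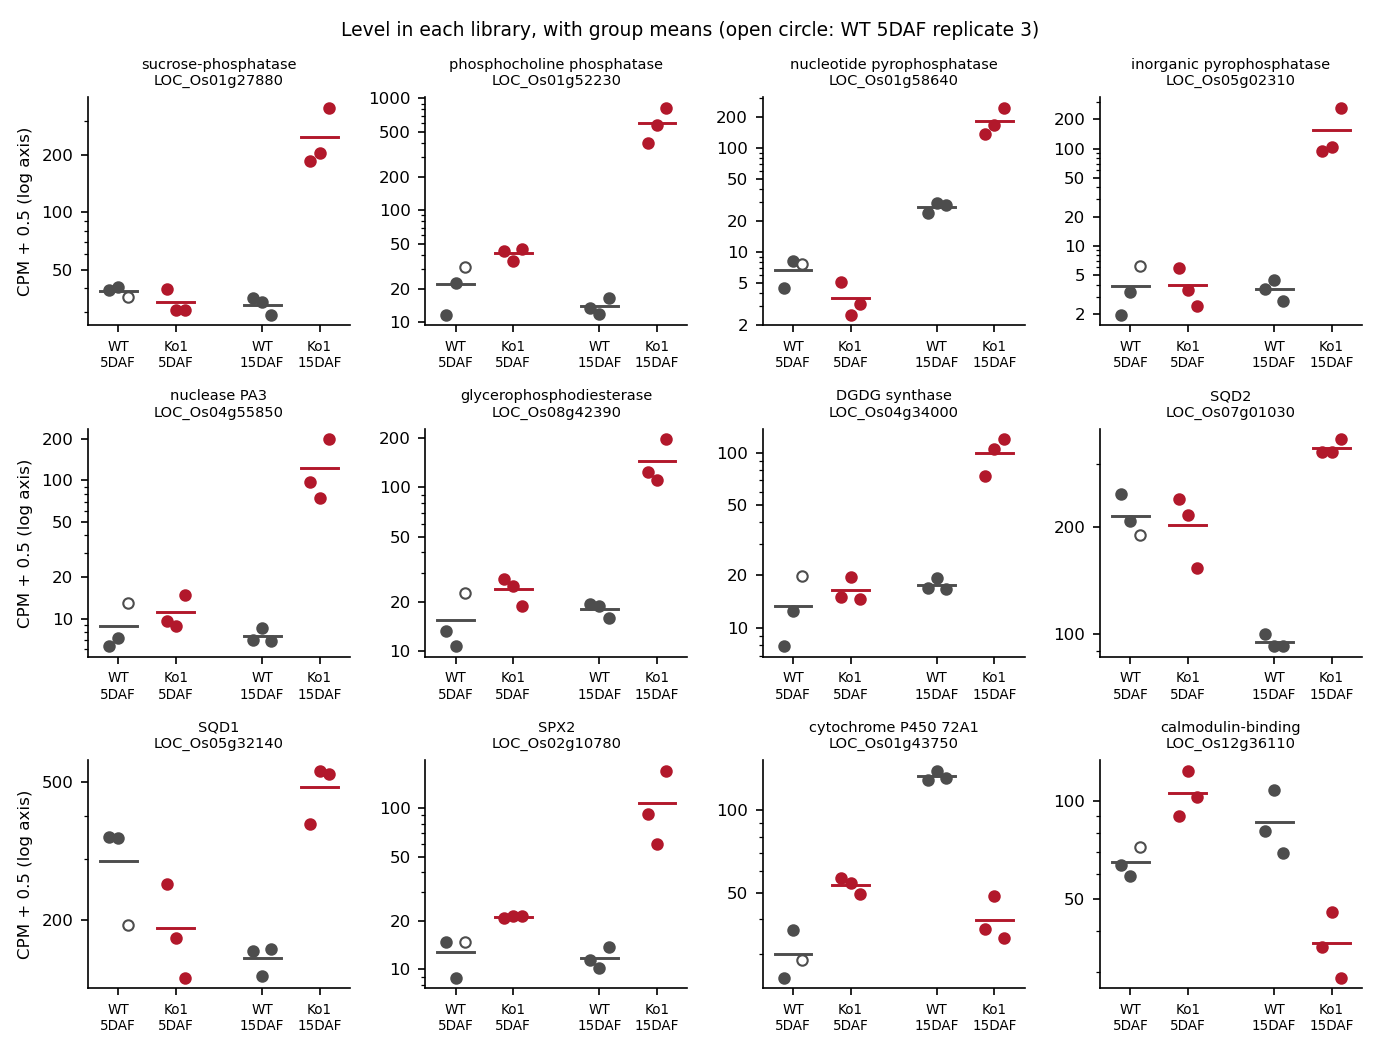
CPM on a log axis (with 0.5 added) in each of the 12 libraries for 12 genes called in both fits, by group; each point is 1 library, bars are group means and the open circle is WT 5DAF replicate 3. In the 10 genes with a positive interaction the Ko1 15DAF points lie above all other points, and in the last 2, the cytochrome P450 and the calmodulin-binding gene, they lie below the WT 15DAF points.

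Of 30 genes of the Ser/Thr protein phosphatase family, chosen after its values were seen, 2 passed with all libraries (0.460% of all genes were called positive) and 1 without WT 5DAF replicate 3 (0.340%). This family had medians of 0.13 and 0.25, with 17 and 20 of the 30 positive. LOC_Os07g04210 (chromosome 7, 1841996 to 1848576) belongs to this family by its description. LOC_Os07g04210 stood at 12.003, 12.9 and 17.9 CPM in WT at 5DAF, 21.3, 17.3 and 19.9 CPM in Ko1 at 5DAF, 19.3, 20.4 and 23.97 CPM in WT at 15DAF and 101, 123 and 167 CPM in Ko1 at 15DAF. LOC_Os07g04210 gave an interaction of 2.17 (SE 0.272, edgeR adjusted p = 0.000887) with all libraries and of 1.98 (SE 0.2604, edgeR adjusted p = 0.00175) without WT 5DAF replicate 3. The WT libraries at 15DAF overlapped the Ko1 libraries at 5DAF, and the Ko1 libraries at 15DAF were all above them. LOC_Os05g45770 (chromosome 5, 26507606 to 26510075) holds a divergent PAP2 domain, a relative of lipid phosphatase domains. LOC_Os05g45770 stood at 16.004, 14.9 and 19.4 CPM in WT at 5DAF, 20.9, 22.5 and 21.3 CPM in Ko1 at 5DAF, 14.04, 12.99 and 11.3 CPM in WT at 15DAF and 61.8, 95.3 and 106 CPM in Ko1 at 15DAF. With all libraries LOC_Os05g45770 had an interaction of 2.42 (SE 0.275, edgeR adjusted p = 0.000475), and without WT 5DAF replicate 3 it had one of 2.32 (SE 0.285, edgeR adjusted p = 0.00138). PAP10a (LOC_Os01g56880, chromosome 1, 32848236 to 32852610) is a purple acid phosphatase that rice induces and secretes under Pi shortage. PAP10a stood at 61.3, 107 and 197 CPM in WT at 5DAF, 191, 219 and 212 CPM in Ko1 at 5DAF, 74.2, 84.4 and 83.2 CPM in WT at 15DAF and 515, 482 and 659 CPM in Ko1 at 15DAF. The highest of its group was WT 5DAF replicate 3, which lay within the range of the Ko1 5DAF libraries, which lay above the other WT libraries. For PAP10a the interaction was 2.01 (SE 0.386, edgeR adjusted p = 0.0261) in the fit to all libraries and 1.48 (SE 0.261, edgeR adjusted p = 0.0191) once WT 5DAF replicate 3 was left out. PAP10a was the 1 of 11 tested members of the acid phosphatase list that edgeR called, in both fits, where DESeq2 called 3 and 2. This list had medians of 0.26 and 0.29. LOC_Os07g04210 and LOC_Os05g45770 kept their calls of both fits in every leave-one-out fit and under the 6 other alternatives listed at the end of the results. PAP10a lost its all-library call without Ko1 5DAF replicate 1, 2 or 3, WT 15DAF replicate 1, 2 or 3 or Ko1 15DAF replicate 3 and with the 4 groups fitted alone (log2 1.48 to 2.34 over the leave-one-out fits), and the call made without WT 5DAF replicate 3 ended on further leaving out WT 5DAF replicate 2, Ko1 5DAF replicate 2 or WT 15DAF replicate 1 or 2 and with the 4 groups fitted alone (log2 1.02 to 1.82 over the leave-one-out fits).

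Both sulfolipid genes were higher in Ko1 at 15DAF and had a positive interaction, as did a glycosyltransferase and a desaturase/cytochrome b5 gene. SQD1 (LOC_Os05g32140, chromosome 5, 18738597 to 18741960) and SQD2 (LOC_Os07g01030, chromosome 7, 17515 to 21408) make the sulfur-containing lipid that replaces phospholipid in chloroplast membranes. SQD1 stood at 348, 344 and 193 CPM in WT at 5DAF, 254, 177 and 136 CPM in Ko1 at 5DAF, 163, 137 and 165 CPM in WT at 15DAF and 379.6, 540.1 and 529.6 CPM in Ko1 at 15DAF. The Ko1 libraries lay above WT at 15DAF, whereas at 5DAF WT replicates 1 and 2 were above all Ko1 libraries and WT replicate 3 was among them. SQD1 gave an interaction of 2.28 (SE 0.361, edgeR adjusted p = 0.007996) with all libraries and of 2.53 (SE 0.3303, edgeR adjusted p = 0.00175) without WT 5DAF replicate 3. SQD2 stood at 247, 207 and 189 CPM in WT at 5DAF, 238, 215 and 152 CPM in Ko1 at 5DAF, 99.4, 91.9 and 92.4 CPM in WT at 15DAF and 322, 322 and 350.3 CPM in Ko1 at 15DAF. In WT the level was lower at 15DAF than at 5DAF in every library, and in Ko1 it was higher. With all libraries SQD2 had an interaction of 1.895 (SE 0.224, edgeR adjusted p = 0.000546), and without WT 5DAF replicate 3 it had one of 1.995 (SE 0.233, edgeR adjusted p = 0.00111). LOC_Os01g04920 (chromosome 1, 2275067 to 2278872), of the same glycosyltransferase group as SQD2 by its description, is not assigned a substrate here. LOC_Os01g04920 stood at 15.2, 19.999 and 27.9 CPM in WT at 5DAF, 36.5, 33.8 and 35.7 CPM in Ko1 at 5DAF, 39.5, 35.98 and 35.03 CPM in WT at 15DAF and 385, 313 and 761 CPM in Ko1 at 15DAF. Its Ko1 libraries were above WT at both stages, by more at 15DAF. For LOC_Os01g04920 the interaction was 2.98 (SE 0.389, edgeR adjusted p = 0.00118) in the fit to all libraries and 2.73 (SE 0.379, edgeR adjusted p = 0.00294) once WT 5DAF replicate 3 was left out. LOC_Os09g16920 (chromosome 9, 10338558 to 10340697) is described as a desaturase/cytochrome b5 protein. LOC_Os09g16920 stood at 8.62, 7.51 and 6.43 CPM in WT at 5DAF, 5.03, 3.09 and 2.41 CPM in Ko1 at 5DAF, 5.56, 5.58 and 7.104 CPM in WT at 15DAF and 11.8, 28.5 and 28.5 CPM in Ko1 at 15DAF. Its Ko1 libraries were all below WT at 5DAF and all above WT at 15DAF. LOC_Os09g16920 gave an interaction of 3.01 (SE 0.491, edgeR adjusted p = 0.00949) with all libraries and of 3.14 (SE 0.515, edgeR adjusted p = 0.0136) without WT 5DAF replicate 3. SQD1, SQD2 and LOC_Os01g04920 kept their calls of both fits in every leave-one-out fit and under the 6 other alternatives listed at the end of the results. LOC_Os09g16920 kept its all-library call in all 12 leave-one-out fits and the 6 other alternatives, and the call made without WT 5DAF replicate 3 ended on further leaving out Ko1 5DAF replicate 2 or WT 15DAF replicate 1 or 2 (log2 2.88 to 3.48 over the leave-one-out fits).

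Among 8 galactolipid synthases tested, 3 passed with all libraries and 2 without WT 5DAF replicate 3, all positive, beside 0.460% and 0.340% of all genes. Their median interaction was 0.89 and 0.94. MGD2 (LOC_Os08g20420, chromosome 8, 12266091 to 12269671), which makes monogalactosyldiacylglycerol, had 0 counts in all 3 WT libraries at 15DAF and 37.6, 39.2 and 97.8 CPM in the Ko1 libraries. At 5DAF it stood at 0, 0.0766 and 0.663 CPM in WT, which is 0, 1 and 10 counts, and at 0.976, 0.926 and 0.689 CPM in Ko1. At 15DAF it was thus at least 939-fold higher in Ko1, taking 3 counts over the WT group as the floor. The edgeR adjusted p of its interaction was 0.00924 with all libraries and 0.391 without WT 5DAF replicate 3, the WT library with 10 counts, and the fitted value is not given because it depends on the groups near 0. LOC_Os04g34000 (chromosome 4, 20587018 to 20593240), a digalactosyldiacylglycerol synthase, adds a further galactose. LOC_Os04g34000 stood at 7.38, 12.1 and 19.2 CPM in WT at 5DAF, 14.6, 19.2 and 14.1 CPM in Ko1 at 5DAF, 16.5, 18.7 and 16.2 CPM in WT at 15DAF and 73.1, 104 and 118 CPM in Ko1 at 15DAF. WT 5DAF replicate 3 matched the highest Ko1 library at 5DAF, and the genotypes did not overlap at 15DAF. With all libraries LOC_Os04g34000 had an interaction of 2.22 (SE 0.382, edgeR adjusted p = 0.0127), and without WT 5DAF replicate 3 it had one of 1.82 (SE 0.328, edgeR adjusted p = 0.0227). Another digalactosyldiacylglycerol synthase, LOC_Os02g33580, had interactions of 1.003 and 1.03 (edgeR adjusted p = 0.0269 and 0.0452) in the fits with and without that library. LOC_Os08g42390 (chromosome 8, 26751370 to 26754564), a glycerophosphodiester phosphodiesterase family member, acts on deacylated phospholipids. LOC_Os08g42390 stood at 12.8, 10.2 and 22.1 CPM in WT at 5DAF, 26.9, 24.6 and 18.3 CPM in Ko1 at 5DAF, 18.8, 18.3 and 15.4 CPM in WT at 15DAF and 124, 110.1 and 195 CPM in Ko1 at 15DAF. Library WT 5DAF replicate 3 lay among the Ko1 5DAF libraries, and at 15DAF Ko1 was above WT throughout. For LOC_Os08g42390 the interaction was 2.403 (SE 0.386, edgeR adjusted p = 0.00907) in the fit to all libraries and 2.03 (SE 0.347, edgeR adjusted p = 0.0176) once WT 5DAF replicate 3 was left out. Of 10 such genes tested it was the 1 that edgeR called, in both fits, where DESeq2 called 4 and 3. The median of these 10 was 1.03 with all libraries, with 9 positive, and 0.03 without WT 5DAF replicate 3, with 5 positive. LOC_Os04g34000, LOC_Os02g33580, LOC_Os08g42390 and these 2 families were chosen after their values were seen. MGD2 lost its all-library call without WT 5DAF replicate 3 and with the 4 groups fitted alone and under voom. LOC_Os04g34000 lost its all-library call with the 4 groups fitted alone, and the call made without WT 5DAF replicate 3 ended on further leaving out WT 5DAF replicate 2, Ko1 5DAF replicate 3, WT 15DAF replicate 1, 2 or 3 or Ko1 15DAF replicate 3 and with the 4 groups fitted alone and under voom (log2 1.41 to 2.13 over the leave-one-out fits). LOC_Os02g33580 lost its all-library call without Ko1 5DAF replicate 2 or 3, WT 15DAF replicate 1, 2 or 3 or Ko1 15DAF replicate 3 and with the 4 groups fitted alone (log2 0.88 to 1.09 over the leave-one-out fits), and the call made without WT 5DAF replicate 3 ended on further leaving out WT 5DAF replicate 1 or 2, Ko1 5DAF replicate 2 or 3, WT 15DAF replicate 1, 2 or 3 or Ko1 15DAF replicate 3 and with no low-count filter and with the 4 groups fitted alone (log2 0.85 to 1.097 over the leave-one-out fits). LOC_Os08g42390 kept its all-library call in all 12 leave-one-out fits and the 6 other alternatives, and the call made without WT 5DAF replicate 3 ended on further leaving out WT 5DAF replicate 1 or WT 15DAF replicate 1, 2 or 3 (log2 1.703 to 2.18 over the leave-one-out fits).

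Several enzymes that attack phospholipids or nucleic acids passed only while WT 5DAF replicate 3 was in the fit. LOC_Os11g43760 (chromosome 11, 26433999 to 26439652), a class 3 lipase, stood at 0, 0.2299 and 6.69 CPM in WT and 4.05, 2.59 and 7.44 CPM in Ko1 at 5DAF. At 15DAF it had 2 counts over the 3 WT libraries and 4270 over the Ko1 libraries, a ratio of 2194.5 after scaling to library size, with an exact 95% interval of 607.1 to 18130 for counting error only. WT 5DAF replicate 3 was near the highest Ko1 library, and the other WT 5DAF libraries were close to 0. The edgeR adjusted p was 0.0145 with all libraries and 0.512 without that library. LOC_Os08g33710 (chromosome 8, 21050472 to 21052852), a T2 ribonuclease, stood at 0.759, 3.14 and 39.4 CPM in WT at 5DAF, 3.75, 3.702 and 2.48 CPM in Ko1 at 5DAF, 5.13, 4.42 and 10.3 CPM in WT at 15DAF and 42.3, 80.8 and 115 CPM in Ko1 at 15DAF. Here WT 5DAF replicate 3 lay above every other library at 5DAF of either genotype. LOC_Os08g33710 gave an interaction of 5.697 (SE 1.21, edgeR adjusted p = 0.0442) with all libraries and of 2.799 (SE 0.736, edgeR adjusted p = 0.138) without WT 5DAF replicate 3. The phospholipase D genes LOC_Os01g20860 and LOC_Os06g44060 had interactions of 2.71 and 1.87 with all libraries (edgeR adjusted p = 0.0269 and 0.0388), and of 2.402 and 1.64 without that library (edgeR adjusted p = 0.0626 and 0.0687). Over all genes 0.460% were called positive with all libraries and 0.340% without that library. In the fit without that library, 1876 of 20900 genes had an unadjusted p under 0.05 in edgeR, and DESeq2 called 310. Of 10 phospholipase D genes tested, 2 passed with all libraries and 0 without it in edgeR (3 at an unadjusted p under 0.05, and 3 in DESeq2). Of 5 T2 ribonucleases 2 passed with all libraries and 0 without it (3 at an unadjusted p under 0.05 in edgeR, and 2 in DESeq2). The phospholipase D genes and both families were chosen after their values were seen. LOC_Os11g43760 lost its all-library call without WT 5DAF replicate 3 or WT 15DAF replicate 1, 2 or 3 and with the 4 groups fitted alone and under voom. LOC_Os08g33710 lost its all-library call without WT 5DAF replicate 3, Ko1 5DAF replicate 1, 2 or 3, WT 15DAF replicate 1, 2 or 3 or Ko1 15DAF replicate 2 or 3 and with the 4 groups fitted alone and under voom (log2 2.799 to 6.27 over the leave-one-out fits). LOC_Os01g20860 lost its all-library call without WT 5DAF replicate 3, Ko1 5DAF replicate 1 or 2, WT 15DAF replicate 1 or 3 or Ko1 15DAF replicate 3 and with the 4 groups fitted alone (log2 2.402 to 3.07 over the leave-one-out fits). LOC_Os06g44060 lost its all-library call without WT 5DAF replicate 2 or 3, Ko1 5DAF replicate 1, 2 or 3, WT 15DAF replicate 1, 2 or 3 or Ko1 15DAF replicate 3 and with the 4 groups fitted alone (log2 1.64 to 2.15 over the leave-one-out fits).

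Within the Pi transport and starvation list, 27 of 29 genes were tested and 7 passed with all libraries, all positive, against 0.460% of all genes. They were SPX2, PHO2, PHF1, SQD1, SQD2, MGD2 and PAP10a. Without WT 5DAF replicate 3 the other 6 passed and MGD2 did not. These are edgeR calls. DESeq2 called 9 of the 27 in either fit, beside 307 of 20437 and 310 of 20900 genes. The median interaction of the list was 1.11 with all libraries and 0.80 without that library, beside 0.04 and 0.03 over all genes, and 22 of the 27 were positive with all libraries. The list was chosen with earlier results of these data known. SPX2 (LOC_Os02g10780, chromosome 2, 5706636 to 5709127) senses Pi status and restrains PHR2. SPX2 stood at 14.2, 8.35 and 14.2 CPM in WT at 5DAF, 20.4, 20.9 and 20.9 CPM in Ko1 at 5DAF, 10.9, 9.72 and 13.3 CPM in WT at 15DAF and 91.6, 59.5 and 169 CPM in Ko1 at 15DAF. Its Ko1 libraries were above WT at both stages, by more at 15DAF. With all libraries SPX2 had an interaction of 2.48 (SE 0.438, edgeR adjusted p = 0.0145), and without WT 5DAF replicate 3 it had one of 2.38 (SE 0.463, edgeR adjusted p = 0.0309). PHO2 (LOC_Os05g48390, chromosome 5, 27740005 to 27747950) is a ubiquitin-conjugating enzyme that promotes the breakdown of Pi transporters and PHO1 proteins. PHO2 stood at 80.4, 92.8 and 70.3 CPM in WT at 5DAF, 70.6, 75.9 and 135 CPM in Ko1 at 5DAF, 55.8, 67.8 and 84.2 CPM in WT at 15DAF and 216, 230.1 and 467 CPM in Ko1 at 15DAF. For PHO2 the interaction was 1.93 (SE 0.408, edgeR adjusted p = 0.0441) in the fit to all libraries and 2.04 (SE 0.4198, edgeR adjusted p = 0.0452) once WT 5DAF replicate 3 was left out. Its 5DAF libraries overlapped and its 15DAF libraries did not. PHF1 (LOC_Os07g09000, chromosome 7, 4682480 to 4687654) helps Pi transporters leave the endoplasmic reticulum. PHF1 stood at 100.4, 93.5 and 80.5 CPM in WT at 5DAF, 94.3, 98.04 and 88.2 CPM in Ko1 at 5DAF, 39.8, 40.6 and 39.4 CPM in WT at 15DAF and 77.7, 81.9 and 83.9 CPM in Ko1 at 15DAF. Both genotypes were lower at 15DAF than at 5DAF, and the difference between the stages was larger in WT. PHF1 falls outside the naming rule and was chosen after its values were seen. PHF1 gave an interaction of 0.99 (SE 0.176, edgeR adjusted p = 0.0146) with all libraries and of 1.09 (SE 0.184, edgeR adjusted p = 0.0168) without WT 5DAF replicate 3. SPX2 lost its all-library call without WT 15DAF replicate 1 or 2 and with the 4 groups fitted alone (log2 2.0003 to 2.77 over the leave-one-out fits), and the call made without WT 5DAF replicate 3 ended on further leaving out WT 5DAF replicate 1, Ko1 5DAF replicate 2 or 3 or WT 15DAF replicate 1, 2 or 3 and with the 4 groups fitted alone (log2 1.84 to 2.695 over the leave-one-out fits). PHO2 lost its all-library call without WT 5DAF replicate 1 or 2, Ko1 5DAF replicate 1 or 2, WT 15DAF replicate 1, 2 or 3 or Ko1 15DAF replicate 3 and with the 4 groups fitted alone (log2 1.5003 to 2.29 over the leave-one-out fits), and the call made without WT 5DAF replicate 3 ended on further leaving out WT 5DAF replicate 1 or 2, Ko1 5DAF replicate 1 or 2, WT 15DAF replicate 1, 2 or 3 or Ko1 15DAF replicate 3 and under RLE scaling and with the 4 groups fitted alone (log2 1.55 to 2.34 over the leave-one-out fits). PHF1 lost its all-library call without Ko1 5DAF replicate 3, WT 15DAF replicate 1, 2 or 3 or Ko1 15DAF replicate 3 and with the 4 groups fitted alone (log2 0.92 to 1.09 over the leave-one-out fits), and the call made without WT 5DAF replicate 3 ended on further leaving out WT 5DAF replicate 1 or WT 15DAF replicate 1 or 2 (log2 1.003 to 1.13 over the leave-one-out fits).

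Well known Pi starvation markers stood far above WT in Ko1 at 15DAF and above WT replicates 1 and 2 at 5DAF. Their interaction did not pass in edgeR. All 4 SPX domain genes tested, a family chosen after its values were seen, were positive in both fits (medians 4.78 and 2.29). In either fit edgeR called 1 of these 4 and DESeq2 called 2, beside 0.460% and 0.340% of all genes called positive in edgeR. SPX1, GDPD2, IPS1 and SPX-MFS2 were chosen after their values were seen, and PHR1 and PHR2 fall outside the naming rule. SPX1 (LOC_Os06g40120) stood at 20.7, 19.5 and 102 CPM in WT and 115, 142 and 126 CPM in Ko1 at 5DAF, and at 15.5, 17.9 and 16.7 CPM and 279.8, 249 and 526 CPM at 15DAF. WT 5DAF replicate 3 was close to the Ko1 libraries and the other 2 WT libraries were far below them. With all libraries SPX1 had an interaction of 2.97 (SE 0.671, edgeR adjusted p = 0.0571), and without WT 5DAF replicate 3 it had one of 1.74 (SE 0.386, edgeR adjusted p = 0.0642). GDPD2 (LOC_Os02g31030) stood at 8.83, 7.36 and 69.9 CPM in WT at 5DAF, 91.04, 101 and 117 CPM in Ko1 at 5DAF, 11.3, 18.6 and 14.3 CPM in WT at 15DAF and 495, 536 and 887 CPM in Ko1 at 15DAF. For GDPD2 the interaction was 3.6001 (SE 0.825, edgeR adjusted p = 0.0597) in the fit to all libraries and 1.79 (SE 0.403, edgeR adjusted p = 0.0662) once WT 5DAF replicate 3 was left out. Leaving out WT 5DAF replicate 3 lowered both values, to a size still positive and short of the threshold. IPS1, a non-coding RNA that soaks up the microRNA acting on PHO2, stood at 0, 0.0766 and 199.98 CPM in WT and 124, 142 and 363 CPM in Ko1 at 5DAF, and at 0, 0 and 0.3796 CPM and 203, 98.4 and 426 CPM at 15DAF. Its interaction was 8.96 with all libraries and −1.57 without WT 5DAF replicate 3, a change of sign, with edgeR adjusted p = 0.167 and 0.9397. The fitted values rest on WT libraries at or near 0. SPX-MFS2, a vacuolar Pi transporter, also changed sign, from 0.97 to −0.43 (edgeR adjusted p = 0.837 and 0.764). The upstream factors PHR1 and PHR2 had interactions of 0.1005 and −0.06 with all libraries (SE 0.1695 and 0.208), and of 0.16 and −0.12 without WT 5DAF replicate 3 (SE 0.184 and 0.217).

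**Figure D4:**
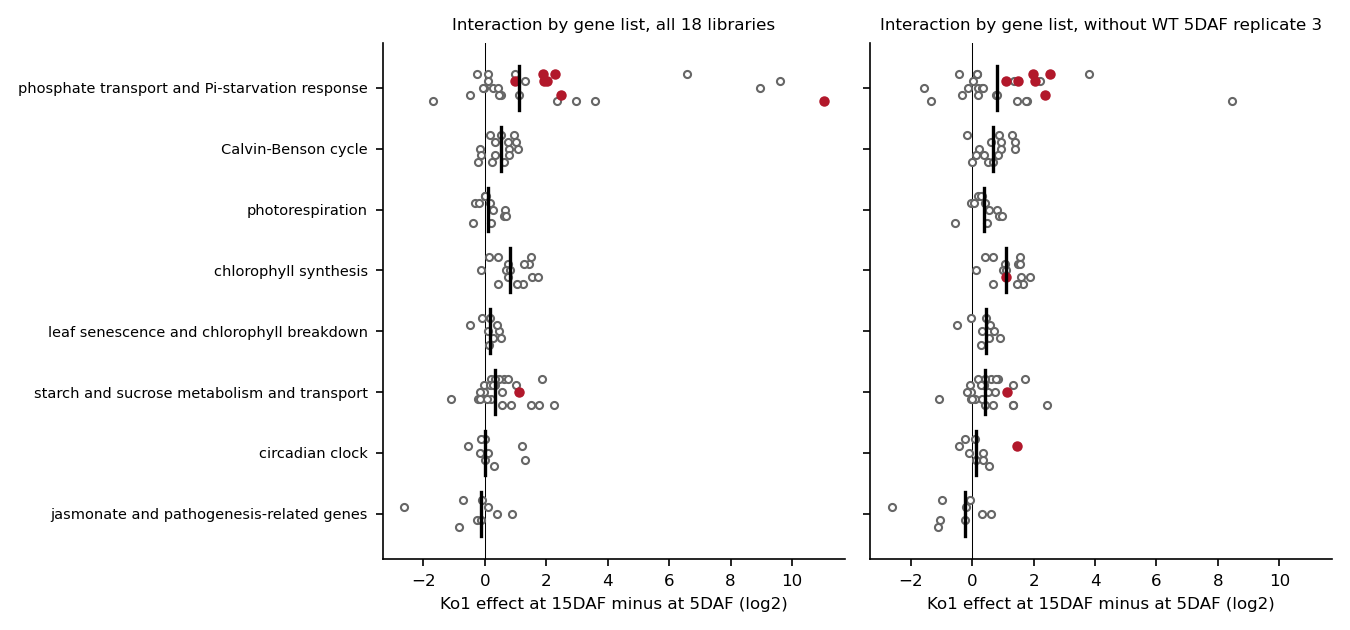
Interaction (log2) of each tested member of the gene lists, for 8 lists, with the list median as a bar, with all libraries and without WT 5DAF replicate 3; filled points passed the threshold. The Pi list holds most filled points and, with the chlorophyll synthesis list, has the medians farthest to the right of 0.

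The lowest p-value of either fit belonged to a gene of sucrose synthesis. LOC_Os01g27880 (chromosome 1, 15568776 to 15573377) is described as a sucrose-phosphatase, which removes phosphate from sucrose phosphate in the last step of sucrose synthesis. LOC_Os01g27880 stood at 38.6, 39.998 and 35.5 CPM in WT at 5DAF, 39.2, 30.4 and 30.3 CPM in Ko1 at 5DAF, 34.8, 33.3 and 28.4 CPM in WT at 15DAF and 185, 203 and 351 CPM in Ko1 at 15DAF. The Ko1 15DAF libraries stood far above the other 9, which kept to a narrow range. LOC_Os01g27880 gave an interaction of 3.13 (SE 0.307, edgeR adjusted p = 0.000225) with all libraries and of 3.19 (SE 0.323, edgeR adjusted p = 0.000481) without WT 5DAF replicate 3. Of 3 sucrose-phosphatase genes tested it alone passed, in both fits, beside 0.460% and 0.340% of all genes called positive. This family was chosen after its values were seen, so the count is a description. AGPS2 (LOC_Os08g25734, chromosome 8, 15666201 to 15672594) is a subunit of ADP-glucose pyrophosphorylase, the entry into starch synthesis, and the table describes it as a large subunit. AGPS2 stood at 124, 145 and 137 CPM in WT at 5DAF, 151, 132 and 123 CPM in Ko1 at 5DAF, 135, 129.8 and 137 CPM in WT at 15DAF and 259, 275 and 337 CPM in Ko1 at 15DAF. Again the other 9 libraries covered 1 narrow range and the Ko1 15DAF libraries lay above it. With all libraries AGPS2 had an interaction of 1.12 (SE 0.184, edgeR adjusted p = 0.00967), and without WT 5DAF replicate 3 it had one of 1.12 (SE 0.196, edgeR adjusted p = 0.0191). It was the 1 of 27 tested genes of starch and sucrose metabolism that edgeR called, in both fits, where DESeq2 and voom each called 2. The list medians were 0.33 and 0.40. GBSSII (LOC_Os07g22930), the granule-bound starch synthase of leaves, stood at 199, 234 and 146 CPM in WT and 120.2, 86.9 and 84.1 CPM in Ko1 at 5DAF, and at 354, 398 and 417 CPM and 675, 789 and 1332 CPM at 15DAF. All Ko1 libraries were below WT at 5DAF and above WT at 15DAF. For GBSSII the interaction was 2.25 (SE 0.513, edgeR adjusted p = 0.0581) in the fit to all libraries and 2.43 (SE 0.531, edgeR adjusted p = 0.0613) once WT 5DAF replicate 3 was left out. GBSSII thus missed the threshold in both fits, and it was chosen after its values were seen. LOC_Os01g27880 kept its call of both fits in every leave-one-out fit and under the 6 other alternatives listed at the end of the results. AGPS2 lost its all-library call with the 4 groups fitted alone, and the call made without WT 5DAF replicate 3 ended on further leaving out WT 5DAF replicate 2, Ko1 5DAF replicate 2 or WT 15DAF replicate 1 or 2 and with the 4 groups fitted alone (log2 0.96 to 1.22 over the leave-one-out fits).

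Single members of 4 enzyme families around hexose phosphates and glycolysis, chosen after their values were seen, passed with a positive interaction. The enolase LOC_Os03g14450 (chromosome 3, 7847992 to 7852823) makes phosphoenolpyruvate. This enolase stood at 111, 129.9 and 187 CPM in WT at 5DAF, 162, 174 and 148 CPM in Ko1 at 5DAF, 126, 132 and 119.6 CPM in WT at 15DAF and 439, 370.1 and 551 CPM in Ko1 at 15DAF. The 5DAF ranges overlapped and the 15DAF ranges were apart. LOC_Os03g14450 gave an interaction of 1.67 (SE 0.264, edgeR adjusted p = 0.007996) with all libraries and of 1.45 (SE 0.231, edgeR adjusted p = 0.0111) without WT 5DAF replicate 3. The phosphoglucomutase LOC_Os03g50480 had interactions of 1.04 and 0.95 (edgeR adjusted p = 0.0269 and 0.0484) in the fits with and without WT 5DAF replicate 3. The UTP-glucose-1-phosphate uridylyltransferase LOC_Os09g38030 had 1.28 and 1.24 (edgeR adjusted p = 0.0388 and 0.0662), and the pyrophosphate-dependent phosphofructokinase LOC_Os08g25720 had 1.202 and 1.25 (edgeR adjusted p = 0.0481 and 0.0642), so each passed with all libraries alone. In these families 1 of 6 enolases, 1 of 3 phosphoglucomutases, 1 of 4 uridylyltransferases and 1 of 5 pyrophosphate-dependent phosphofructokinases passed with all libraries, where 0.460% of all genes were called positive. Without WT 5DAF replicate 3, edgeR called 1 of 6, 1 of 3, 0 of 5 and 0 of 5 (2 uridylyltransferases and 3 phosphofructokinases at an unadjusted p under 0.05, and 1 of each in DESeq2), where 0.340% of all genes were. The enolases had median interactions of 0.16 and 0.12, with 4 of 6 positive in either fit. LOC_Os03g14450 kept its all-library call in all 12 leave-one-out fits and the 6 other alternatives, and the call made without WT 5DAF replicate 3 ended on further leaving out WT 5DAF replicate 2 or WT 15DAF replicate 1 (log2 1.24 to 1.54 over the leave-one-out fits). LOC_Os03g50480 lost its all-library call without Ko1 5DAF replicate 1, 2 or 3, WT 15DAF replicate 1, 2 or 3 or Ko1 15DAF replicate 3 and with the 4 groups fitted alone (log2 0.92 to 1.13 over the leave-one-out fits), and the call made without WT 5DAF replicate 3 ended on further leaving out WT 5DAF replicate 1 or 2, Ko1 5DAF replicate 1, 2 or 3, WT 15DAF replicate 1, 2 or 3 or Ko1 15DAF replicate 1 or 3 and under RLE scaling, with no low-count filter and with the 4 groups fitted alone (log2 0.77 to 0.98 over the leave-one-out fits). LOC_Os09g38030 lost its all-library call without WT 5DAF replicate 1 or 3, Ko1 5DAF replicate 2 or 3, WT 15DAF replicate 1, 2 or 3 or Ko1 15DAF replicate 3 and with the 4 groups fitted alone (log2 1.04 to 1.44 over the leave-one-out fits). LOC_Os08g25720 lost its all-library call without WT 5DAF replicate 2 or 3, Ko1 5DAF replicate 1, 2 or 3, WT 15DAF replicate 1, 2 or 3 or Ko1 15DAF replicate 1 or 3 and with the 4 groups fitted alone and under voom (log2 1.01 to 1.34 over the leave-one-out fits).

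Calls in both fits also fell on 2 genes with DNA-binding domains and on genes of other kinds. LOC_Os03g60120 (chromosome 3, 34192417 to 34193650) holds an AP2 DNA-binding domain. LOC_Os03g60120 stood at 41.3, 53.1 and 63.6 CPM in WT at 5DAF, 53.3, 71.5 and 95.1 CPM in Ko1 at 5DAF, 35.6, 28.02 and 37.3 CPM in WT at 15DAF and 187, 254 and 228 CPM in Ko1 at 15DAF. The 5DAF ranges overlapped, and Ko1 was above WT in every library at 15DAF. With all libraries LOC_Os03g60120 had an interaction of 2.25 (SE 0.281, edgeR adjusted p = 0.000887), and without WT 5DAF replicate 3 it had one of 2.11 (SE 0.274, edgeR adjusted p = 0.00175). LOC_Os06g49040 (chromosome 6, 29723457 to 29727122), with a Myb-like DNA-binding domain, was chosen after its values were seen. LOC_Os06g49040 stood at 16.6, 12.3 and 20.9 CPM in WT at 5DAF, 27.99, 23.3 and 18.8 CPM in Ko1 at 5DAF, 17.2, 17.6 and 18.3 CPM in WT at 15DAF and 119, 97.03 and 185 CPM in Ko1 at 15DAF. For LOC_Os06g49040 the interaction was 2.43 (SE 0.335, edgeR adjusted p = 0.00208) in the fit to all libraries and 2.24 (SE 0.335, edgeR adjusted p = 0.00573) once WT 5DAF replicate 3 was left out. Its 15DAF levels were far apart between the genotypes and its 5DAF levels overlapped. LOC_Os04g51920 (chromosome 4, 30805662 to 30808467) is described as a protein disulfide isomerase, which folds proteins in the endoplasmic reticulum. LOC_Os04g51920 stood at 36.5, 30.3 and 51.04 CPM in WT at 5DAF, 82.03, 70.5 and 46.3 CPM in Ko1 at 5DAF, 5.56, 6.801 and 7.86 CPM in WT at 15DAF and 80.4, 54.03 and 91.1 CPM in Ko1 at 15DAF. In this gene WT was lower at 15DAF than at 5DAF while Ko1 kept similar levels at both stages. LOC_Os04g51920 gave an interaction of 2.72 (SE 0.355, edgeR adjusted p = 0.00118) with all libraries and of 2.502 (SE 0.345, edgeR adjusted p = 0.00294) without WT 5DAF replicate 3. LOC_Os07g08760 (chromosome 7, 4503369 to 4507785), with a lipid-binding START domain, had the same shape with a smaller fold. LOC_Os07g08760 stood at 124, 128 and 93.4 CPM in WT at 5DAF, 104, 129 and 114 CPM in Ko1 at 5DAF, 45.8, 46.9 and 53.5 CPM in WT at 15DAF and 125, 111 and 111 CPM in Ko1 at 15DAF. With all libraries LOC_Os07g08760 had an interaction of 1.24 (SE 0.1902, edgeR adjusted p = 0.00723), and without WT 5DAF replicate 3 it had one of 1.39 (SE 0.172, edgeR adjusted p = 0.00138). In edgeR 1 of 70 AP2/ERF genes and 0 of 94 genes of the MYB list passed with all libraries, beside 0.460% of all genes called positive. The MYB list was drawn by words of the description and does not hold LOC_Os06g49040, which passed. Of the 94, 15 had an unadjusted p under 0.05 in edgeR and DESeq2 called 5, beside 1710 and 307 of all 20437 genes. Once WT 5DAF replicate 3 was out, 1 of 72 AP2/ERF genes and 4 of 98 genes of the MYB list passed, beside 0.340%. LOC_Os03g60120, LOC_Os06g49040 and LOC_Os04g51920 kept their calls of both fits in every leave-one-out fit and under the 6 other alternatives listed at the end of the results. LOC_Os07g08760 lost its all-library call with the 4 groups fitted alone, and the call made without WT 5DAF replicate 3 held throughout.

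Most tested genes of the light-harvesting, chlorophyll synthesis and photosystem lists had a positive interaction, and 0 or 1 of each list passed in edgeR. Over all genes, 11036 of 20437 and 10934 of 20900 were positive, and 0.460% and 0.340% were called positive. At an unadjusted p under 0.05 edgeR gave 1710 and 1876 of all genes, and DESeq2 called 307 and 310. All 17 tested light-harvesting genes were positive in both fits, with medians of 0.49 with all libraries and 0.79 without WT 5DAF replicate 3, and 0 passed in edgeR (2 and 8 at an unadjusted p under 0.05, and 1 and 1 in DESeq2). Of the 15 chlorophyll synthesis genes 14 were positive with all libraries (median 0.83, with 0 passing in edgeR, 6 at an unadjusted p under 0.05 and 1 in DESeq2). Without that library 15 were positive (median 1.11, with 1 passing in edgeR, 10 at an unadjusted p under 0.05 and 3 in DESeq2). The median Ko1 minus WT difference of the 15 genes was −0.72 at 5DAF and −0.09 at 15DAF with all libraries. It was −0.96 and −0.08 without WT 5DAF replicate 3, so the gap below WT was smaller at the later stage in both fits. CAO1 (LOC_Os10g41780), the chlorophyll b-forming oxygenase, stood at 359, 341 and 136 CPM in WT and 105, 150.1 and 113 CPM in Ko1 at 5DAF, and at 246, 304 and 306 CPM and 223, 226 and 192 CPM at 15DAF. The library WT 5DAF replicate 3 lay within the Ko1 range and far below the other WT libraries. For CAO1 the interaction was 0.76 (SE 0.364, edgeR adjusted p = 0.602) in the fit to all libraries and 1.11 (SE 0.231, edgeR adjusted p = 0.0465) once WT 5DAF replicate 3 was left out. LHY (LOC_Os08g06110), a morning MYB factor of the clock, stood at 66.6, 89.1 and 42.8 CPM in WT at 5DAF, 42.9, 37.5 and 37.5 CPM in Ko1 at 5DAF, 92.8, 102 and 103 CPM in WT at 15DAF and 123, 124 and 160.4 CPM in Ko1 at 15DAF. LHY gave an interaction of 1.21 (SE 0.311, edgeR adjusted p = 0.117) with all libraries and of 1.46 (SE 0.2601, edgeR adjusted p = 0.0212) without WT 5DAF replicate 3. Of 9 clock genes edgeR called 0 with all libraries (2 had an unadjusted p under 0.05) and 1, LHY, without that library, while DESeq2 and voom each called 1 in either fit. The clock list had medians of 0.005 and 0.11, with 6 of 9 positive in either fit. The labels used here give no time of day for the harvest, so a difference in sampling time between groups was not tested. Of 54 photosystem and electron carrier genes tested, 0 passed with all libraries in edgeR (7 at an unadjusted p under 0.05, and 1 in DESeq2) and 1 of 56 did without that library: LOC_Os02g24634, a nuclear locus described as the photosystem II D2 protein, which is normally encoded in the plastid genome, so reads of the plastid gene cannot be told apart. Of these 56, 11 had an unadjusted p under 0.05 in edgeR and DESeq2 called 1. The medians of this list were 0.54 and 0.48, with 47 positive in either fit. CAO1 lost the call made without WT 5DAF replicate 3 on further leaving out WT 5DAF replicate 1 or 2, Ko1 5DAF replicate 1 or 3, WT 15DAF replicate 1, 2 or 3 or Ko1 15DAF replicate 1, 2 or 3 and under RLE scaling, with no low-count filter, with the 4 groups fitted alone and under voom (log2 0.97 to 1.29 over the leave-one-out fits). LHY lost the call made without WT 5DAF replicate 3 on further leaving out WT 5DAF replicate 2, Ko1 5DAF replicate 2 or 3 or WT 15DAF replicate 1, 2 or 3 (log2 1.22 to 1.64 over the leave-one-out fits). LOC_Os02g24634 lost the call made without WT 5DAF replicate 3 on further leaving out WT 5DAF replicate 1 or 2, Ko1 5DAF replicate 2 or 3, WT 15DAF replicate 1, 2 or 3 or Ko1 15DAF replicate 1 or 2 and with the 4 groups fitted alone (log2 1.61 to 2.003 over the leave-one-out fits).

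Several groups gave no called gene in edgeR in either fit, where 0.553% and 0.402% of all genes were called. At those shares, 0 calls does not set lists of this size apart from all genes. Over all genes, 11036 of 20437 and 10934 of 20900 had a positive interaction. The 123 cytosolic ribosomal protein genes had a median interaction of −0.31 with all libraries and −0.36 without WT 5DAF replicate 3, with 11 and 7 of them positive. In edgeR 0 of them passed, and 17 and 23 had an unadjusted p under 0.05, beside 1710 of 20437 and 1876 of 20900 genes. DESeq2 called 1 of them in either fit, beside 307 and 310 of all genes. The 15 Calvin-Benson genes had medians of 0.53 and 0.69, the 12 photorespiration genes 0.10 and 0.37, and the 9 senescence and chlorophyll breakdown genes 0.18 and 0.44. At an unadjusted p under 0.05, edgeR gave 4 and 8 Calvin-Benson genes, 0 and 2 photorespiration genes and 0 and 2 senescence genes, and DESeq2 called 2 Calvin-Benson genes without that library and otherwise 0. The 9 jasmonate and pathogenesis-related genes had medians of −0.14 and −0.24, with 1 gene at an unadjusted p under 0.05 in either fit and 0 called by DESeq2. The 24 aquaporins tested with all libraries had a median of 0.76, and those tested without that library 0.28, with 4 and 2 genes at an unadjusted p under 0.05 and 1 called by DESeq2 in either fit. A list with 0 called members may still hold differences below what 3 libraries a group can show.

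Negative interactions were fewer and fell on genes of several kinds. Across the 19 negative genes of the all-library fit the median Ko1 minus WT difference was 0.41 at 5DAF and −1.24 at 15DAF. At 15DAF 16 were called lower in Ko1, beside 906 of all 20437 genes. Within genotypes, 8 changed past the threshold in Ko1 alone, 6 in WT alone and 5 in opposite directions in both. Over all genes, 20.1% changed with stage in Ko1 and 16.7% in WT. The 13 negative genes of the fit without WT 5DAF replicate 3 had medians of 0.48 at 5DAF and −1.07 at 15DAF. Of these, 10 were called lower in Ko1 at 15DAF, beside 1238 of all 20900 genes. Of these 13, 5 changed in Ko1 alone, 6 in WT alone and 2 in opposite directions, where 21.8% of all genes changed in Ko1 and 14.9% in WT. The firmest was LOC_Os01g43750 (chromosome 1, 25066171 to 25068299), described as a cytochrome P450 of a large oxidase family. LOC_Os01g43750 stood at 24.01, 36.2 and 27.97 CPM in WT at 5DAF, 56.3, 53.7 and 48.9 CPM in Ko1 at 5DAF, 128, 138 and 130.04 CPM in WT at 15DAF and 36.3, 48.3 and 33.7 CPM in Ko1 at 15DAF. Ko1 was above WT in every library at 5DAF and below WT in every library at 15DAF. In WT it rose with stage, by 2.17 on the log2 scale (edgeR adjusted p = 6.235e-06 with all libraries). The Ko1 libraries were slightly lower at 15DAF than at 5DAF, and this change of −0.43 did not pass (edgeR adjusted p = 0.174 with all libraries). With all libraries LOC_Os01g43750 had an interaction of −2.597 (SE 0.3003, edgeR adjusted p = 0.000482), and without WT 5DAF replicate 3 it had one of −2.55 (SE 0.332, edgeR adjusted p = 0.00175). It was the 1 negative call among 171 cytochrome P450 genes tested with all libraries and among 178 without WT 5DAF replicate 3. LOC_Os12g36110 (chromosome 12, 22132798 to 22136895), a calmodulin-binding protein, was also higher in Ko1 at 5DAF and lower in Ko1 at 15DAF. LOC_Os12g36110 stood at 63.1, 58.5 and 71.8 CPM in WT at 5DAF, 89.3, 123 and 102 CPM in Ko1 at 5DAF, 80.2, 107 and 68.6 CPM in WT at 15DAF and 35.2, 45.3 and 28.3 CPM in Ko1 at 15DAF. Its genotypes did not overlap at either stage, and their order was opposite. For LOC_Os12g36110 the interaction was −1.94 (SE 0.324, edgeR adjusted p = 0.0106) in the fit to all libraries and −2.001 (SE 0.351, edgeR adjusted p = 0.0191) once WT 5DAF replicate 3 was left out. LOC_Os01g42234 (chromosome 1, 23923718 to 23933451), of the amino acid permease family, was level between genotypes at 5DAF. LOC_Os01g42234 stood at 5.93, 8.51 and 5.77 CPM in WT at 5DAF, 4.203, 4.998 and 8.68 CPM in Ko1 at 5DAF, 21.7, 21.7 and 24.4 CPM in WT at 15DAF and 5.72, 2.89 and 4.49 CPM in Ko1 at 15DAF. LOC_Os01g42234 gave an interaction of −2.19 (SE 0.386, edgeR adjusted p = 0.0145) with all libraries and of −2.08 (SE 0.404, edgeR adjusted p = 0.0312) without WT 5DAF replicate 3. The WT libraries were higher at 15DAF than at 5DAF, while the Ko1 ranges of both stages overlapped. LOC_Os01g57073 (chromosome 1, 32965305 to 32977407), described as an insulin-degrading enzyme, a peptidase, and LOC_Os04g53720 (chromosome 4, 32009476 to 32016407), with the SNF2 domain of chromatin remodellers, had interactions of −1.58 and −1.55 (edgeR adjusted p = 0.00976 and 0.0227) and −1.34 and −1.25 (edgeR adjusted p = 0.0115 and 0.0288), each with and without that library. Calmodulin-like and EF hand genes were called in both directions, 4 positive and 4 negative of 191 with all libraries, beside 0.460% and 0.0930% of all genes, and 4 and 3 of 194 without WT 5DAF replicate 3, beside 0.340% and 0.0622%, with a list median of −0.05. LOC_Os01g43750 kept its call of both fits in every leave-one-out fit and under the 6 other alternatives listed at the end of the results. LOC_Os12g36110 kept its all-library call in all 12 leave-one-out fits and the 6 other alternatives, and the call made without WT 5DAF replicate 3 ended on further leaving out WT 5DAF replicate 1 or 2, Ko1 5DAF replicate 2 or WT 15DAF replicate 1 or 2 (log2 −2.24 to −1.85 over the leave-one-out fits). LOC_Os01g42234 lost its all-library call with the 4 groups fitted alone, and the call made without WT 5DAF replicate 3 ended on further leaving out WT 5DAF replicate 1 or 2, Ko1 5DAF replicate 2 or 3, WT 15DAF replicate 1, 2 or 3 or Ko1 15DAF replicate 3 and with the 4 groups fitted alone (log2 −2.37 to −1.75 over the leave-one-out fits). LOC_Os01g57073 lost its all-library call with the 4 groups fitted alone, and the call made without WT 5DAF replicate 3 ended on further leaving out WT 5DAF replicate 1 or 2, Ko1 5DAF replicate 2 or WT 15DAF replicate 1 or 2 and with the 4 groups fitted alone (log2 −1.75 to −1.39 over the leave-one-out fits). LOC_Os04g53720 lost its all-library call without WT 15DAF replicate 1 and with the 4 groups fitted alone (log2 −1.58 to −1.21 over the leave-one-out fits), and the call made without WT 5DAF replicate 3 ended on further leaving out WT 5DAF replicate 1, Ko1 5DAF replicate 2 or 3 or WT 15DAF replicate 1, 2 or 3 and with the 4 groups fitted alone (log2 −1.64 to −0.96 over the leave-one-out fits).

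Some genes differed between the genotypes in opposite directions at the 2 stages. Without WT 5DAF replicate 3, 9 of the 71 positive genes were called lower in Ko1 at 5DAF and higher at 15DAF, and 1 of the 13 negative genes, LOC_Os01g43750, was called the other way round. With all libraries 0 of the 113 genes were called at both stages, since only 3 genes passed at 5DAF at all, against 3965 at an unadjusted p under 0.05 in edgeR. SQD1 and LOC_Os09g16920, described above, are among the 9. LOC_Os07g02800 (chromosome 7, 1046017 to 1048052), a MYB family transcription factor, stood at 146, 171 and 52.1 CPM in WT at 5DAF, 62.8, 55.2 and 53.4 CPM in Ko1 at 5DAF, 55.5, 50.2 and 61.01 CPM in WT at 15DAF and 82.4, 90.3 and 129 CPM in Ko1 at 15DAF. WT 5DAF replicate 3 lay just below all Ko1 libraries, and WT 5DAF replicates 1 and 2 lay far above them, so the reversal rests on which WT libraries are read. With all libraries LOC_Os07g02800 had an interaction of 1.96 (SE 0.461, edgeR adjusted p = 0.0721), and without WT 5DAF replicate 3 it had one of 2.34 (SE 0.329, edgeR adjusted p = 0.00312). The SNF1-related kinases LOC_Os11g02240 and LOC_Os12g02200 lie in a segment that is nearly identical between the ends of chromosomes 11 and 12, so reads may have been split between them and both values are uncertain. LOC_Os11g02240 stood at 8.62, 24.4 and 7.62 CPM in WT and 6.23, 7.404 and 2.41 CPM in Ko1 at 5DAF, and at 2.49, 2.31 and 1.46 CPM and 9.24, 14.2 and 11.3 CPM at 15DAF. Its interaction was 3.81 and 4.104 (edgeR adjusted p = 0.0115 and 0.00708) in the fits with and without WT 5DAF replicate 3, and that of LOC_Os12g02200 was 2.33 and 2.64 (edgeR adjusted p = 0.0442 and 0.0176). Both were lower at 15DAF than at 5DAF in WT and higher in Ko1. LOC_Os07g02800 kept the call made without WT 5DAF replicate 3 throughout. LOC_Os11g02240 lost its all-library call with the 4 groups fitted alone, and the call made without WT 5DAF replicate 3 ended on further leaving out WT 5DAF replicate 2 (log2 3.17 to 4.67 over the leave-one-out fits). LOC_Os12g02200 lost its all-library call without WT 5DAF replicate 2, Ko1 5DAF replicate 2 or 3, WT 15DAF replicate 1, 2 or 3 or Ko1 15DAF replicate 2 or 3 and with the 4 groups fitted alone (log2 1.82 to 2.66 over the leave-one-out fits), and the call made without WT 5DAF replicate 3 ended on further leaving out WT 5DAF replicate 2, Ko1 5DAF replicate 2 or WT 15DAF replicate 1, 2 or 3 and with the 4 groups fitted alone (log2 2.11 to 3.01 over the leave-one-out fits).

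How many genes were called depended on single libraries and on the fit. With all libraries as the base, leaving out 1 of the 12 libraries gave 35 to 142 calls in place of 113, and the lowest number, 35, came without WT 15DAF replicate 1. In the fit without WT 5DAF replicate 3, leaving out 1 more gave 18 to 115 calls in place of 84, with 18 without WT 15DAF replicate 1 or 2. Of the 113 genes, 32 were called in all 12 leave-one-out fits, 28 positive and 4 negative, and 24 of these also under the 6 other alternatives. Of the 84, 15 were called in all 11 leave-one-out fits and under all 6 other alternatives. Those alternatives were DESeq2, RLE scaling, no filter on low counts, a replicate block, a fit to the 4 WT and Ko1 groups alone, and limma voom with sample quality weights. Fitting the 4 groups alone gave 30 calls with all libraries and 37 without WT 5DAF replicate 3, and DESeq2 gave 307 and 310. Sample weights estimated by voom were lowest for WT 5DAF replicate 3 (0.332), Ko1 5DAF replicate 3 (0.348) and Ko1 15DAF replicate 2 (0.364).

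**Figure D5:**
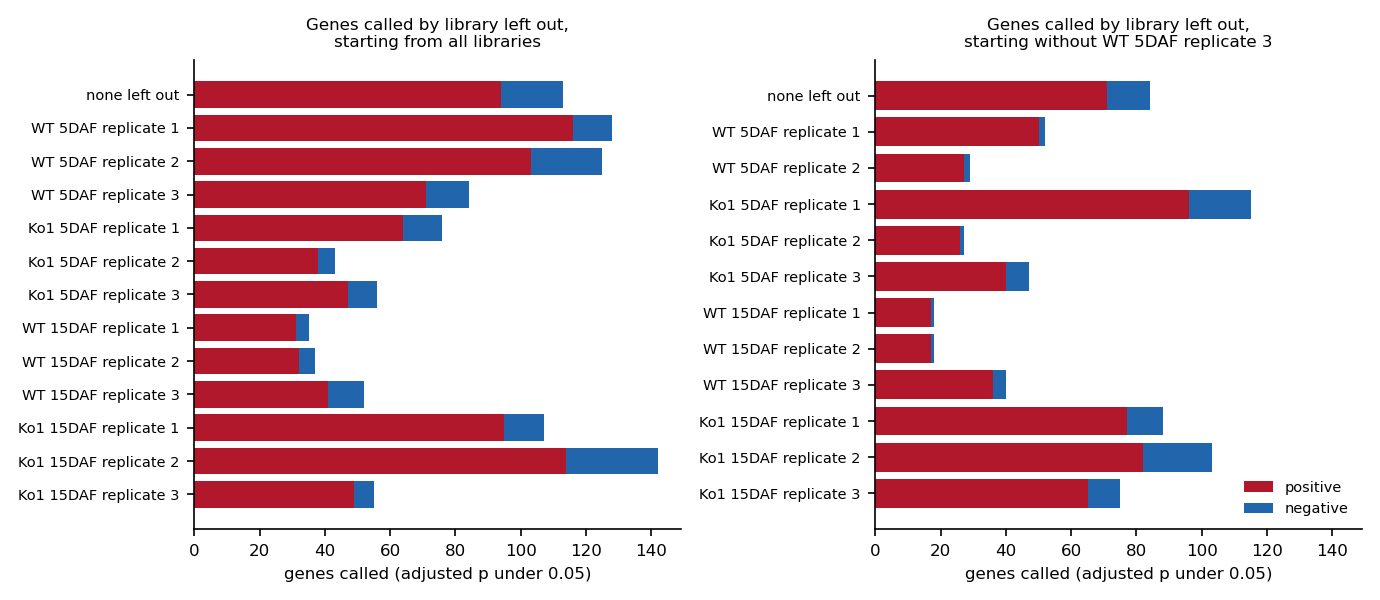
Number of genes with a called interaction, positive and negative, when each library is left out in turn, for the fit to all libraries and the fit without WT 5DAF replicate 3. Counts run from 35 to 142 and from 18 to 115.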

How the data were processed

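Total RNA from flag leaves was sequenced from standard Illumina libraries, per the labels' protocols. The deposited table gives read counts per rice locus and, beside them, FPKM values made by the authors, per the file headers. Bowtie 0.12.2 and the build mm8 are listed in the submitters' processing notes. mm8 is a mouse build and the table lists rice loci, so which rice build, annotation and counting tool were used is not known here. Strand is not stated, so overlapping antisense genes and near-identical copies cannot be told apart.

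Deposited counts were the measurement tested. FPKM served only as a check on them: for 14683 genes over 20 counts in every library, the gene length implied by both units varied by a ratio of at most 1.00004 between libraries, and 0 loci were at 0 in one unit alone. The 12 libraries held 13223554 to 18264909 counts, and the genes tested held 99.8% to 100.0% of them. Within each of the 4 groups, no pair of libraries agreed within sampling noise.

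Counts of all 18 libraries in 6 groups were filtered (filterByExpr), TMM-scaled and fitted with edgeR 4.0.16 (R 4.3.3) by quasi-likelihood, with Benjamini-Hochberg adjustment over all genes tested and a threshold of 0.05. The interaction was fitted with all libraries and again without WT 5DAF replicate 3. SEs are the log2 value divided by the square root of its F statistic. CPM are TMM-scaled from the all-library fit. The scripts were tested on simulated data. Alternatives were DESeq2 1.42.0, RLE scaling, no low-count filter, a replicate block, the 4 groups alone, limma 3.58.1 voom with sample quality weights, a threshold of 0.01 and leaving out each library. No adjusted p in DESeq2 that was missing was counted as a call.

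Genes named are OsPHO1;2, the 12 highest and 12 lowest interactions per fit among described genes at 1 CPM or more, up to 4 called members per list, the 6 lowest p-values per fit and up to 12 genes called in both fits. Exceptions are marked in the text. Lists were by locus (129 genes, 127 in the table) or by words of the description (27 lists). The groups, lists and rules were chosen with earlier results of these data known. No sequences are shown, since none was at hand for these loci.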

Additional observations from a re-analysis of the deposited data

Results flagged for a closer look

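The interaction is itself a test of whether the Ko1 effect differed between 5DAF and 15DAF, and every gene past its threshold is listed here as a difference between stages: 113 genes with all libraries and 84 without WT 5DAF replicate 3 (edgeR, adjusted p under 0.05). Groups of 3 libraries are too small for a test of single outlying samples.

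Among the 84, 10 genes stood out because Ko1 differed from WT past the threshold at both stages and in opposite directions. LOC_Os01g43750, the cytochrome P450 gene, was higher in Ko1 at 5DAF and lower at 15DAF, with an interaction of −2.55. The other 9 were lower in Ko1 at 5DAF and higher at 15DAF. Their interactions without WT 5DAF replicate 3 were 2.53 for SQD1 (LOC_Os05g32140), 3.14 for the desaturase/cytochrome b5 gene LOC_Os09g16920, 4.10 and 2.64 for the near-identical kinases LOC_Os11g02240 and LOC_Os12g02200, 3.34 for the lipoxygenase LOC_Os02g10120 and 2.34 for the MYB gene LOC_Os07g02800. The rubredoxin gene LOC_Os08g23410 had 1.68, the fibrillin family gene LOC_Os11g38260 1.25 and LOC_Os03g55530, described as HLS, 3.18. The calls of LOC_Os02g10120, LOC_Os03g55530 and LOC_Os11g38260 rest on few libraries: of the 11 fits that left out 1 more library, 4, 3 and 3 called them, and over those fits their interactions ran from 2.21 to 3.73, from 2.34 to 3.49 and from 1.05 to 1.305. Each of the 3 lost its call without WT 5DAF replicate 1 or 2, Ko1 5DAF replicate 2 or 3 or WT 15DAF replicate 1, 2 or 3 and with the 4 groups fitted alone. LOC_Os03g55530 also lost it without Ko1 15DAF replicate 2 and under RLE scaling, and LOC_Os11g38260 without Ko1 15DAF replicate 3. LOC_Os08g23410 lost its call without WT 15DAF replicate 2.

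All 10 rest on 2 WT libraries at 5DAF, and with all libraries none of the 113 genes passed at both stages (only 3 genes passed at 5DAF in edgeR, and 3965 had an unadjusted p under 0.05). For the lipoxygenase LOC_Os02g10120 the Ko1 15DAF levels were 41.4, 131 and 18.8 CPM, and 1 of them lay below all WT 15DAF libraries, at 22.7, 19.4 and 25.2 CPM.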

How the results depend on the processing

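With all libraries the number of called interactions, 113, moved to 307 with DESeq2 (227 positive and 80 negative, all 113 among them), to 30 with the 4 WT and Ko1 groups fitted alone and to 26 at an adjusted p under 0.01. It ranged from 35 to 142 when 1 library was left out, from a low of 35 (WT 15DAF replicate 1 out) through 37 and 52 (WT 15DAF replicate 2 or 3 out), 43 and 56 (Ko1 5DAF replicate 2 or 3 out) and 55 (Ko1 15DAF replicate 3 out). RLE scaling gave 110, no low-count filter 156 and voom 142. Without WT 5DAF replicate 3 the number, 84, moved to 310 with DESeq2, 131 with no low-count filter, 37 with the 4 groups alone and 17 at an adjusted p under 0.01. Leaving out 1 more library gave 18 to 115, with 18 once WT 15DAF replicate 1 or 2 was out, 27 or 47 with Ko1 5DAF replicate 2 or 3 out, 52 or 29 with WT 5DAF replicate 1 or 2 out and 40 with WT 15DAF replicate 3 out. RLE scaling gave 77 and voom 97. Fitting the 4 groups alone changed the filter, the scaling and the libraries that gave the spread. Why any of these numbers moved was not tested. IPS1 went from 8.96 to −1.57 and SPX-MFS2 from 0.97 to −0.43 without WT 5DAF replicate 3, neither past the threshold in either fit; with each library left out in turn they ranged from −1.57 to 13.15 and from −0.43 to 1.395.

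Correlations of the deviations of same-numbered replicates were 0.313, 0.0803 and 0.286 between WT and Ko1 at 5DAF and −0.248 to 0.174 between the other groups. They were not over 0.1 in every pair of any 2 groups, so the numbers were not taken to pair the samples. A fit with a replicate block gave 84 calls with all libraries, 78 of them among the 113, and 75 without WT 5DAF replicate 3, 68 of them among the 84. Of the genes named, the block ended the all-library calls of LOC_Os08g33710, LOC_Os09g38030, LOC_Os08g25720 and LOC_Os02g10120, and the calls made without WT 5DAF replicate 3 of LOC_Os02g33580, CAO1, LOC_Os02g24634, LOC_Os01g42234, LOC_Os04g53720, LOC_Os02g10120 and LOC_Os03g55530. Positive calls outnumbered negative ones in every alternative of both fits. Each group held 3 libraries of 13223554 or more counts. Whether depth or the spread between libraries set the number of calls was not tested. Genes near 0 counts in WT gave fitted folds that are not read as sizes.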
